A study of Mus musculus with 4 samples.

Results

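The genes described here carry fatty acids into mitochondria and oxidise them, make, desaturate and elongate them, and store them as triglyceride or release them again. They are 41 genes of fatty acid oxidation, synthesis and storage, taken by symbol from the deposited expression tables and set among 46042 genes in all. The tables list them in capitals, as CPT1A, ELOVL5, LPIN2, DGAT2 and PLIN3, and they are written below as mouse gene symbols. Each of the 41 was found, and 36 were abundant enough to be tested. Expression was measured by SMART-seq2, which makes full-length cDNA from small numbers of cells, in γδ T cells sorted from epididymal fat, the visceral fat pad beside the testis.

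The donors were male C57Bl/6 mice carrying a GFP reporter of PLZF, aged 16 to 22 weeks and fed ad libitum. PLZF, the product of Zbtb16, is a transcription factor of innate-like T cells, and GFP divided the sorted cells into a PLZF+ and a PLZF- subset. There were 2 PLZF+ and 2 PLZF- libraries, each from a pool of 10 mice, so differences between single mice are averaged within a pool. Whether the same mice gave cells to both subsets is not stated. The columns of the tables name the subset and a code, A7 and B7 for PLZF+ cells and A6 and B6 for PLZF- cells. No label explains the codes, which are read here as plate wells. All columns, of both subsets, also carry the letters SFD, which are not interpreted here.

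Long-chain fatty acids are first joined to coenzyme A and then enter mitochondria through the carnitine shuttle, where β-oxidation shortens them step by step and passes electrons to the respiratory chain. In the opposite direction, cytosolic acetyl-CoA is built into palmitate, which elongases and desaturases modify and which acyltransferases esterify into triglyceride for lipid droplets. In mouse adipose tissue, PLZF+ γδ T cells are known as producers of IL-17A, and γδ T cells that make IL-17 have been described as relying on lipid metabolism more than those that make interferon-γ.

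The PLZF+ libraries were the deeper ones. Estimated reads outside the rRNA precursor Rn45s numbered 1837476 and 2035023 in the PLZF+ libraries, against 744557 and 981866 in the PLZF- libraries, so 1 read was worth 0.619 and 0.558 normalized counts in PLZF+ cells and 1.69 and 1.22 in PLZF- cells. Zbtb16 had 2899 and 2921 normalized counts in PLZF+ cells and 310 and 699 in PLZF- cells (log2 fold change 2.64 ± 0.31 SE, adjusted p = 0.00051, limma), in the direction of the labels. Markers of other cells differed between the subsets. Of the innate lymphoid and natural killer markers, 10 of 10 tested were lower in PLZF+ cells, and their 12 listed genes summed to 224 to 340 normalized counts in PLZF+ libraries and 4744 to 6232 in PLZF- libraries. Klre1, Eomes and Klra8 were at 0 in both PLZF+ libraries, and Il1rl1 had the highest mean normalized count of the list, with 21.1 and 1.12 in PLZF+ cells and 1230 and 805 in PLZF- cells. Of the dendritic cell markers, 5 of 10 tested were lower in PLZF+ cells and 0 higher, with sums of 67.5 to 201 in PLZF+ and 841 to 1863 in PLZF- libraries, and H2-Ab1 highest in normalized counts at 72.5 and 5.02 in PLZF+ and 624 and 213 in PLZF- cells. Of the listed γδ T cell markers, the receptor genes Trdc, Tcrg-C1, Tcrg-C2 and Tcrg-C4 were not found by symbol. Cd3e, Cd3d, Cd3g, Cd247, Blk, Il17a and Il23r were higher in PLZF+ cells in 7 of 7 cases. These 7 summed to 5021 to 5280 in PLZF+ and 1031 to 1625 in PLZF- libraries. Il23r, which encodes a chain of the IL-23 receptor, had the highest mean normalized count of them. It had 1810 and 1590 in PLZF+ and 191 and 272 in PLZF- cells. Of the 13 fat cell markers, 8, among them Adipoq, Plin1 and Cidec, were at 0 in all 4 libraries, and the 13 summed to 7.25 to 19.2 in PLZF+ and 40.5 to 58.6 in PLZF- libraries. The 2 that could be tested were Pparg, the highest, with 2.48 and 2.23 in PLZF+ and 13.5 and 42.7 in PLZF- cells, and Lipe, with 11.1 and 5.02 in PLZF+ and 18.6 and 15.9 in PLZF- cells, and neither passed (adjusted p = 0.19 and 0.57, limma). The 12 macrophage markers summed to 0.558 to 7.43 in PLZF+ and 21.9 to 44.0 in PLZF- libraries, Lyz2 being the highest at 1.24 and 0 in PLZF+ and 20.2 and 6.10 in PLZF- cells, and 7 of 8 stromal markers were at 0 in all 4, the exception being Pdgfrb at 22.3 and 2.79 in PLZF+ and 0 and 0 in PLZF- cells. Of the B cell, αβ T cell and endothelial lists 1 gene each was tested and 0 were called. The αβ T cell genes found summed to 6.81 and 10.6 in PLZF+ and 57.4 and 37.7 in PLZF- libraries. Among them Cd4, Cd8a and Cd8b1 were at 0 in both PLZF+ libraries. The endothelial genes summed to 162 and 157 in PLZF+ and 113 and 122 in PLZF- libraries. The receptor genes Trac, Trbc1 and Trbc2 of the αβ T cell list and Ighm of the B cell list were not found by symbol. Cd79b was at 33.4 and 29.6 in PLZF+ and 1.69 and 7.32 in PLZF- cells. Cd40lg was at 5.57 and 10.6 in PLZF+ and 30.4 and 14.6 in PLZF- cells. Pecam1 was at 160 and 153 in PLZF+ and 99.5 and 115 in PLZF- cells.

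Among the 41 genes, the differences past the threshold lay in elongation and storage. In PLZF+ cells the elongase Elovl5, the phosphatidate phosphatase Lpin2 and the diacylglycerol acyltransferase Dgat2 fell, by 2.75-fold, 11.5-fold and 25.7-fold, and the droplet coat protein Plin3 rose 4.73-fold, where the folds of Lpin2 and Dgat2 depended on which library was included. The other 32 tested members did not pass an adjusted p of 0.05 in limma's moderated test on log2(normalized count + 1). Thus 11.1% of the 36 tested members were called, against 7.45% of the 9234 genes tested in all, of which 2.48% were higher and 4.97% lower in PLZF+ cells. The median log2 fold change was 0.28 over the 36 members and -0.03 over all genes tested, and 24 members lay above 0 and 12 below. The libraries of the 2 subsets did not overlap for 15 members that were higher and 9 that were lower in PLZF+ cells, against 51.3% of all genes tested, 24.1% higher and 27.2% lower. At an unadjusted p under 0.05, 6 members were higher and 3 lower, against 8.32% and 12.0% of all genes tested. Among 35 members tested in the authors' deposited table, 2, Elovl5 and Plin3, had q under 0.05, against 5.73% of its tested genes. In bulk RNA, fewer cells of a type and less RNA per cell cannot be told apart.

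**Figure D1:**
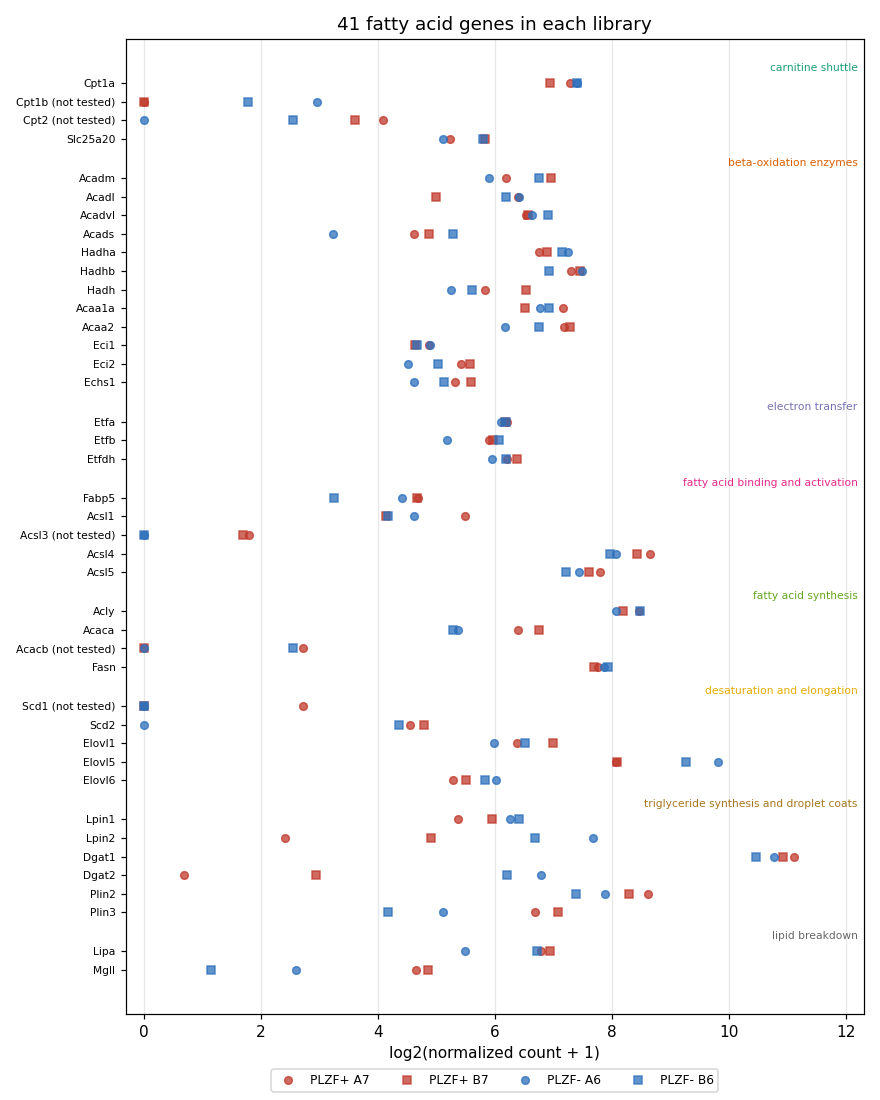
Level of each of the 41 members, grouped by role, as log2(normalized count + 1) in the 2 PLZF+ libraries (red) and the 2 PLZF- libraries (blue), with circles for A7 and A6 and squares for B7 and B6. Red and blue lie close together for most oxidation genes, while Elovl5, Lpin2 and Dgat2 are further right in blue and Plin3 further right in red.

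The promoters of 3 of the 4 called genes are shown because the genes that fell can be set beside the one that rose. The sequences are from RefSeq on GRCm38.p6, read 5′ to 3′ on the strand of the gene over the 250 bases before an annotated start, and Dgat2 is named only. For Elovl5 the last base, which is annotated as exon, was left off, and for Lpin2 the first of 3 starts is given. The windows are chr9:77917115-77917363 (plus strand) for Elovl5, chr17:71183282-71183531 (plus strand) for Lpin2 and chr17:56290512-56290761 (minus strand) for Plin3, and none overlaps an annotated exon. The Lpin2 and Plin3 windows lie inside the GENCODE gene spans given below, which begin upstream of these RefSeq starts. They are therefore not the bases before those GENCODE gene ends. Capitals mark the CCAAT box (CCAAT, or ATTGG on the other strand), the E-box CACGTG and the GC box (GGGCGG, or CCGCCC on the other strand).
Elovl5: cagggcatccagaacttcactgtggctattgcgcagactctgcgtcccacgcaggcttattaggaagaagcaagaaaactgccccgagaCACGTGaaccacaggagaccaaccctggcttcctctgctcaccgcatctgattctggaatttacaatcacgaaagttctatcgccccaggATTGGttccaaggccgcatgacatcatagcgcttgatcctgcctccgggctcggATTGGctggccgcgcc
Lpin2: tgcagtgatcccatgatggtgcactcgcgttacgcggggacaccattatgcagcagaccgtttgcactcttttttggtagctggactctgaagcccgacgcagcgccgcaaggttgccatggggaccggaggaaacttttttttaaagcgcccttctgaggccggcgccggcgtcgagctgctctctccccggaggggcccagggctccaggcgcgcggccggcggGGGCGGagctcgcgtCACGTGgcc
Plin3: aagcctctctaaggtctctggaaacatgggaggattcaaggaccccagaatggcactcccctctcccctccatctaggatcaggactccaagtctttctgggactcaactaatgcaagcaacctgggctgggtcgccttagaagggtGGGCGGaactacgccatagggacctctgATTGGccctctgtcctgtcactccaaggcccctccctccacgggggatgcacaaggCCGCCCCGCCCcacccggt
The Elovl5 window held 2 CCAAT boxes and 1 E-box, the Lpin2 window 1 E-box and 1 GC box, and the Plin3 window 1 CCAAT box and 3 GC boxes, of which the last 2 overlap by 1 base. At the Lpin2 starts not shown, the second window held 1 GC box and the third 3 CCAAT boxes, without an E-box in either. Among the 39 starts of the 34 members with an entry, CACGTG was found at 3 starts, of Elovl5, Lpin2 and Mgll, which is 7.69% against 6.02% of all 32851 starts. The CCAAT box was found at 46.2% of member starts and 33.8% of all starts, and the GC box at 56.4% and 32.7%. A search on both strands for the nuclear receptor half-site AGGTCA found it at 23.1% of member starts and 14.0% of all starts, and for the sterol response element TCACNCCAC at 2.56%, Acsl1 alone, and 1.05%. The 32851 starts are those of 27025 genes, not chosen by expression in these cells, whereas most members passed the expression filter. The shares thus come from unlike sets, and why they differ was not tested. All of these are matches of letters and not measured binding.

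None of the 19 genes of fatty acid oxidation was called between the subsets. Of them 17 were tested, and their log2 fold changes ran from -0.61 to 0.77 with standard errors of 0.30 to 0.77 and a median of 0.17 (adjusted p from 0.25 to 1, limma). At an unadjusted p under 0.05, 0 of the 17 passed, against 20.3% of all genes tested in either direction. The precision was limited: for 5 of the 17 the 95% interval of the fold change lay wholly within 2-fold in either direction, and for the other 12 it reached past 2-fold on at least one side.

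The carnitine shuttle member with the highest mean FPKM was Cpt1a, the liver-type carnitine palmitoyltransferase of the outer mitochondrial membrane and the main control point of long-chain oxidation. Cpt1a had 155 and 122 normalized counts in PLZF+ cells and 169 and 168 in PLZF- cells (log2 fold change -0.29 ± 0.30, 95% interval -0.95 to 0.37, adjusted p = 0.65, limma). The PLZF+ values were the 2 lower ones, with a spread between the PLZF+ pools that was wider than the gap to the PLZF- pools. Of the FPKM of Cpt1a and its muscle-type paralogue Cpt1b together, Cpt1a made up 100% in both PLZF+ libraries, against 94.2% and 97.8% in the PLZF- ones. Cpt1b itself had 0 reads in both PLZF+ libraries, against 4 and 2 in the PLZF- ones, and 0 reads allow up to 1.86 and 1.67 normalized counts at 3 reads. Cpt2, the partner enzyme of the inner membrane, was under the filter on low values, with 16.1 and 11.2 normalized counts (26 and 20 reads) in PLZF+ cells, against 0 and 4.88 (0 and 4 reads) in PLZF- cells. Both PLZF+ libraries were above both PLZF- libraries for Cpt2, whose 0 in A6 allows up to 5.06 normalized counts. Slc25a20, the carnitine-acylcarnitine carrier, was close to Cpt1a in mean FPKM, at 17.5 against 21.1, and had 36.5 and 55.8 normalized counts in PLZF+ cells, against 33.7 and 54.9 in PLZF- cells, with the same order of wells in both subsets.

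The 12 enzymes of β-oxidation were all tested and covered its successive steps. The acyl-CoA dehydrogenases, which take the first step on chains of different length, were Acadvl, Acadl, Acadm and Acads, with log2 fold changes of -0.22 ± 0.35, -0.61 ± 0.51, 0.24 ± 0.44 and 0.49 ± 0.77, the row of Acads being shared with Gm13826. The subunits of the trifunctional protein for long chains, Hadha and Hadhb, stood at -0.38 ± 0.32 and 0.17 ± 0.32. The standard errors were as large as most of these differences. For shorter chains, the hydratase Echs1 and the hydroxyacyl-CoA dehydrogenase Hadh stood at 0.58 ± 0.54 and 0.75 ± 0.47. Of the auxiliary isomerases for unsaturated acids, Eci1 was at -0.02 ± 0.59 and Eci2 at 0.73 ± 0.55, and the peroxisomal thiolase Acaa1a was at -0.00 ± 0.36. The members of this pathway thus lay on both sides of 0. The mitochondrial thiolase Acaa2, which ends each round by releasing acetyl-CoA, had the highest mean FPKM of the 12, with 66.7 and 72.6 FPKM in PLZF+ cells and 33.2 and 50.4 in PLZF- cells. In normalized counts, Acaa2 had 144 and 154 in PLZF+ cells and 70.9 and 107 in PLZF- cells, with both PLZF+ pools above both PLZF- pools (log2 fold change 0.77 ± 0.35, adjusted p = 0.25, limma). The subsets did not overlap with PLZF+ cells higher for Hadh, Acaa2, Eci2 and Echs1, or with PLZF+ cells lower for Acadvl and Hadha, and they overlapped for the other 6. Over all genes tested, the subsets did not overlap for 51.3%, with PLZF+ cells higher for 24.1% and lower for 27.2%.

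Electrons from these dehydrogenases pass through the electron transfer flavoprotein, made of Etfa and Etfb, to its oxidoreductase Etfdh. Etfb, the most abundant of the 3 in FPKM, had 58.8 and 61.4 normalized counts in PLZF+ cells and 35.4 and 65.9 in PLZF- cells (log2 fold change 0.31 ± 0.48, adjusted p = 0.77, limma). Its PLZF- pools lay on either side of both PLZF+ pools, and without PLZF- library A6 the fold change was -0.13. Etfa and Etfdh stood at 0.05 ± 0.40 and 0.22 ± 0.40 on the log2 scale.

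**Figure D2:**
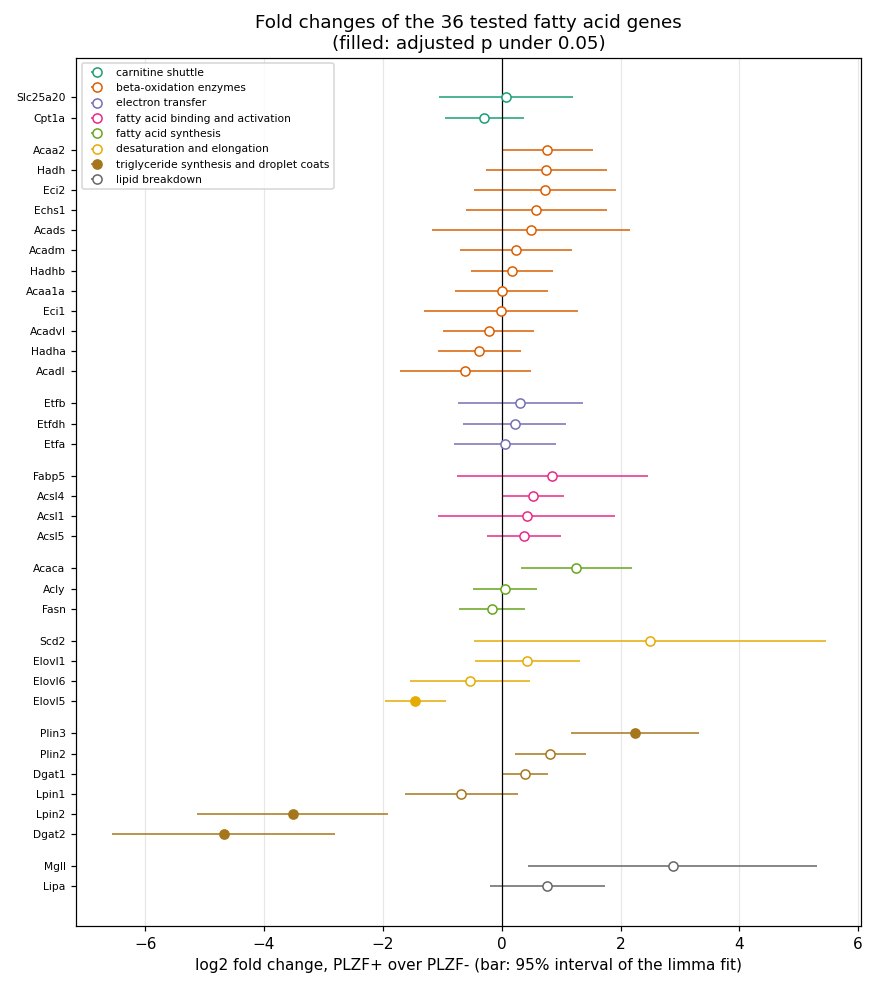
Log2 fold change of PLZF+ over PLZF- cells for the 36 tested members, ordered within role, with the 95% interval of the limma fit as a bar and filled circles for an adjusted p under 0.05. The 17 oxidation genes in the upper 3 groups lie between -0.61 and 0.77, while Dgat2 and Lpin2 lie furthest left at -4.68 and -3.52 and filled Plin3 lies at 2.24.

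Before either route, fatty acids are bound in the cytosol and activated. Acsl4, an acyl-CoA synthetase with a preference for arachidonate and other polyunsaturated acids, had 403 and 343 normalized counts in PLZF+ cells and 268 and 249 in PLZF- cells. Both PLZF+ pools were above both PLZF- pools, but the difference did not pass adjustment (log2 fold change 0.52 ± 0.24, adjusted p = 0.23, limma). Acsl4 made up 53.4% and 53.4% of the summed FPKM of the 4 synthetases measured in PLZF+ cells, and 46.6% and 54.2% in PLZF- cells, so its share overlapped between the subsets. Acsl5, an intestinal and immune cell synthetase, came next with 37.1% and 43.1% in PLZF+ cells and 37.6% and 40.0% in PLZF- cells, and its fold change was 0.37 ± 0.28. Acsl1, prominent in fat and muscle, stood at 0.42 ± 0.68, and the fatty acid carrier Fabp5 at 0.85 ± 0.74. Acsl3 shares its row of the table with Utp14b and was not tested, at 2.48 and 2.23 normalized counts in PLZF+ cells, against 0 and 0 in PLZF- cells.

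The 3 tested enzymes of fatty acid synthesis did not pass the threshold. Acly, which makes cytosolic acetyl-CoA from citrate, had 351 and 291 normalized counts in PLZF+ cells and 267 and 356 in PLZF- cells (log2 fold change 0.05 ± 0.25, adjusted p = 0.93, limma). The pools of the subsets overlapped, and the sign turned to -0.08 without PLZF+ library A7 and -0.15 without PLZF- library A6. Fasn, the synthase that assembles palmitate, had 217 and 207 in PLZF+ and 233 and 243 in PLZF- cells, a log2 fold change of -0.16 ± 0.26 with a 95% interval of -0.72 to 0.39.

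Acaca, the carboxylase that supplies malonyl-CoA and commits carbon to synthesis, had 83.6 and 107 normalized counts in PLZF+ cells and 40.5 and 37.8 in PLZF- cells. Both PLZF+ pools were above both PLZF- pools, at a log2 fold change of 1.25 ± 0.43 that did not pass adjustment (adjusted p = 0.12, limma). The 2 deposited tables disagreed here. In FPKM, Acaca had 6.49 and 7.11 in PLZF+ cells and 17.2 and 2.38 in PLZF- cells, where library A6 was the highest and B6 the lowest, and the fit to the FPKM table gave 0.07. The row also carries a second transcript name, AK040794. Acacb, the mitochondrial carboxylase whose product restrains Cpt1, was too low to test, at 5.57 and 0 normalized counts in PLZF+ cells, against 0 and 4.88 in PLZF- cells.

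Elovl5, which elongates polyunsaturated acids of the arachidonate series, was the desaturation and elongation gene with the highest mean FPKM and the one of 4 tested that passed the threshold. On chromosome 9 (77917364 to 77984519, plus strand, mm10), it had 268 and 272 normalized counts in PLZF+ cells and 901 and 612 in PLZF- cells. The PLZF+ pools were nearly equal and both lay far below both PLZF- pools. The log2 fold change was -1.46 ± 0.24 (adjusted p = 0.0023, limma), and the authors' deposited table gave q = 0.0019. The adjusted p was 0.064, 0.078 and 0.057 without A7, B7 or A6, and 0.18 without trend and robust moderation.

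Elovl1, which elongates saturated and monounsaturated very long chains, had 81.8 and 126 in PLZF+ and 62.4 and 90.2 in PLZF- cells, and Elovl6, which takes palmitate to stearate, had 37.8 and 44.6 in PLZF+ and 64.1 and 56.1 in PLZF- cells. Their log2 fold changes were 0.43 ± 0.40 and -0.54 ± 0.47. Elovl5 thus made up 60.0% and 49.7% of the summed FPKM of the 3 elongases in PLZF+ cells, against 84.0% and 76.0% in PLZF- cells. The family summed to 106 and 122 FPKM in PLZF+ and 242 and 199 in PLZF- libraries. The stearoyl-CoA desaturases, which place the first double bond, were low: Scd2, in a row shared with Mir5114, had 22.3 and 26.8 normalized counts in PLZF+ cells, against 0 and 19.5 in PLZF- cells (2.49 ± 1.36, adjusted p = 0.34, limma). Scd1, the main isoform of mouse fat and liver, was not tested, at 5.57 and 0 in PLZF+ and 0 and 0 in PLZF- cells.

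**Figure D3:**
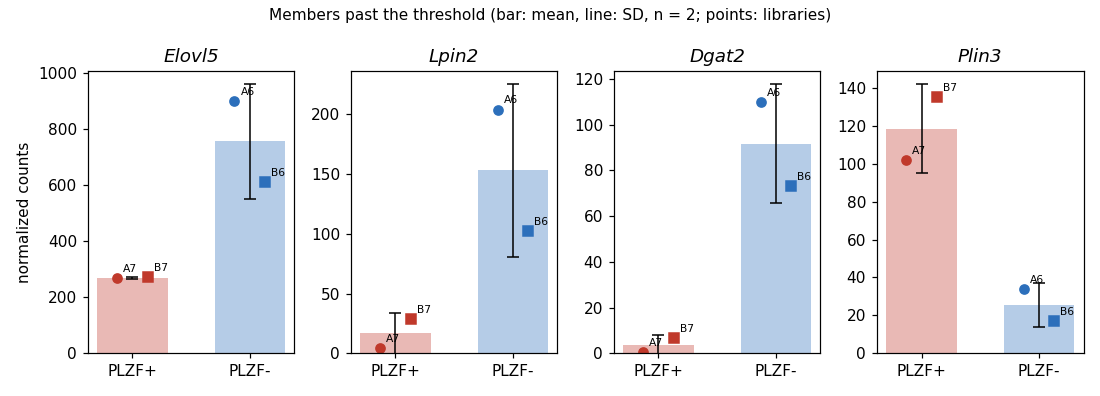
Normalized counts of the 4 members past the threshold in PLZF+ (red) and PLZF- (blue) cells, each panel on its own axis from 0, with bars for the mean, lines for the SD (n = 2) and points for the libraries. Elovl5, Lpin2 and Dgat2 are lower in both PLZF+ libraries than in either PLZF- library, and Plin3 is higher.

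Triglyceride assembly held the largest differences among the members. Lipins dephosphorylate phosphatidate to diacylglycerol, and Lpin2 on chromosome 17 (71182560 to 71249817, plus strand, mm10) had 4.34 and 29.0 normalized counts in PLZF+ cells and 204 and 102 in PLZF- cells. The 2 PLZF+ pools differed 6.69-fold between themselves, yet both lay below both PLZF- pools. The log2 fold change was -3.52 ± 0.74 (adjusted p = 0.011, limma), and the authors' deposited table gave q = 0.059. Lpin2 missed the threshold without A7, A6 or B6 (adjusted p = 0.093, 0.23 and 0.092), in the FPKM table (0.072), without the filter (0.086) and without trend and robust moderation (0.18). Its log2 fold change was -2.28 without A7 and -4.77 without B7, and -2.89 in the FPKM table. The size of the drop is thus poorly fixed. The deposited span of Lpin2 also held other genes, of which Myl12a was highest. Myl12a had 548 and 436 normalized counts in PLZF+ cells and 334 and 346 in PLZF- cells. The sources used here do not say how reads were divided between these genes and Lpin2.

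Its paralogue Lpin1, the main lipin of fat and muscle, had 40.3 and 60.8 normalized counts in PLZF+ cells, against 75.9 and 84.2 in PLZF- cells (-0.68 ± 0.44, adjusted p = 0.42, limma). Lpin2 was 37.3% and 49.5% of their summed FPKM in PLZF+ cells and 86.2% and 68.7% in PLZF- cells. The pair summed to 6.68 and 12.7 FPKM in PLZF+ libraries, against 53.8 and 28.2 FPKM in PLZF- libraries.

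The last step, from diacylglycerol to triglyceride, is carried out by 2 unrelated enzymes, Dgat2 and Dgat1, of which Dgat2 passed the threshold; the difference between them was not tested. Dgat2 on chromosome 7 (99153658 to 99182719, minus strand, mm10) had 0.619 and 6.70 normalized counts in PLZF+ cells and 110 and 73.2 in PLZF- cells, which is 1 and 12 reads against 65 and 60. It was near the detection limit in PLZF+ cells and plainly present in both PLZF- pools. The log2 fold change was -4.68 ± 0.86 (adjusted p = 0.0054, limma), and the authors' deposited table gave q = 0.16. The call was lost without A6 or B6 (adjusted p = 0.18 and 0.086) and without trend and robust moderation (0.085). The log2 fold change was -3.56 without A7, -5.81 without B7 and -3.74 at a pseudocount of 4.

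Dgat1, the endoplasmic reticulum enzyme, had 2212 and 1944 normalized counts in PLZF+ cells and 1741 and 1417 in PLZF- cells (log2 fold change 0.40 ± 0.17, adjusted p = 0.21, limma). Both PLZF+ pools were above both PLZF- pools, and the 95% interval was 0.02 to 0.78. At 676 and 546 FPKM in PLZF+ cells and 501 and 359 in PLZF- cells, it had the highest mean FPKM of the 41 members, at 520. It lies beside Hsf1, whose 2 rows in the same span of the table held 1032 and 871 normalized counts in PLZF+ cells, against 782 and 548 in PLZF- cells in one, and 47.7 and 32.9 in PLZF+ and 57.4 and 57.3 in PLZF- cells in the other. The sources used here do not say how reads at their border were divided, which leaves the level of Dgat1 uncertain. Dgat2 made up 0.0257% and 0.347% of the FPKM of both enzymes in PLZF+ cells and 5.86% and 5.49% in PLZF- cells.

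Of the droplet coat proteins, Plin3, found in the cytosol and on nascent droplets, rose. On chromosome 17 (56277476 to 56292873, minus strand, mm10), it had 102 and 135 normalized counts in PLZF+ cells and 33.7 and 17.1 in PLZF- cells. Both PLZF+ pools were well above both PLZF- pools. The log2 fold change was 2.24 ± 0.49 (adjusted p = 0.015, limma), and the authors' deposited table gave q = 0.036. The adjusted p was 0.16, 0.31 and 0.071 without A7, B7 or B6, 0.058 in the FPKM table, 0.066 without the filter and 0.12 without trend and robust moderation.

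Plin2, the droplet coat protein of most cells that are not fat cells, had 391 and 311 normalized counts in PLZF+ cells and 234 and 166 in PLZF- cells. The subsets did not overlap, and the log2 fold change of 0.82 ± 0.27 did not pass (adjusted p = 0.10, limma). With the well letter as a term its adjusted p was 0.023, and with limma's voom on estimated reads it was 0.034. In 9 of the 11 other settings that kept all libraries, Plin2 did not pass. Its adjusted p in limma was 0.33 in the FPKM table and 0.39 without trend and robust moderation. The log2 fold change of Plin2 ran from 0.57 to 1.07 with a library left out. Together Plin2 and Plin3 summed to 188 and 157 FPKM in PLZF+ libraries, against 120 and 70.1 FPKM in PLZF- libraries, of which Plin3 was 16.1% and 25.7% in PLZF+ and 8.38% and 7.32% in PLZF- cells. Plin1, the coat protein of fat cells, was at 0 in all 4 libraries.

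Lipid breakdown was represented by 2 members, whose PLZF+ values were the higher ones without passing adjustment. Mgll, with Acsl4, Acaca, Dgat1, Plin2 and Plin3, made up the 6 members higher at an unadjusted p under 0.05. Mgll, which cleaves monoglycerides, had 24.2 and 27.9 normalized counts in PLZF+ cells and 5.06 and 1.22 in PLZF- cells, or 39 and 50 reads against 3 and 1. The subsets did not overlap, but the PLZF- values rest on few reads (log2 fold change 2.88 ± 1.12, adjusted p = 0.17, limma). Lipa, the lysosomal acid lipase, had 109 and 122 in PLZF+ and 43.9 and 104 in PLZF- cells, with library A6 the low one (0.76 ± 0.44, adjusted p = 0.37, limma).

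Summed over each role in FPKM, which allows genes of different length to be added, desaturation and elongation stood at 109 and 125 in PLZF+ and 242 and 201 in PLZF- libraries. Both PLZF+ libraries were lower there. Elovl5 alone held 63.3 and 60.5 FPKM of that sum in PLZF+ and 203 and 151 FPKM in PLZF- libraries. Triglyceride synthesis and droplet coats, most of it Dgat1, summed to 871 and 717 in PLZF+ and 706 and 478 in PLZF- libraries. Fatty acid binding and activation summed to 135 and 108 in PLZF+ and 95.9 and 79.1 in PLZF- libraries, and breakdown to 29.0 and 34.9 in PLZF+ and 10.2 and 22.3 in PLZF- libraries. In these 3 roles both PLZF+ libraries were higher, as they were for β-oxidation at 340 and 369 in PLZF+ and 307 and 324 in PLZF- libraries. The carnitine shuttle at 41 and 41 in PLZF+ and 37.3 and 45.8 in PLZF- libraries overlapped, and so did electron transfer at 108 and 127 in PLZF+ and 94.8 and 120 in PLZF- libraries. Fatty acid synthesis stood at 69.0 and 68.0 in PLZF+ and 72.8 and 71.1 in PLZF- libraries. The A6 sum of synthesis includes the 17.2 FPKM of Acaca on which the tables disagree, so no order is read from it. These sums were not tested.

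**Figure D4:**
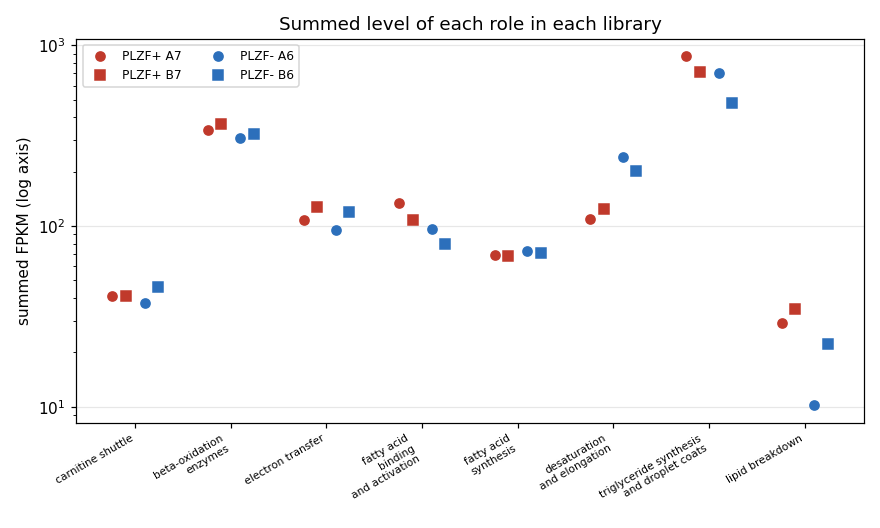
Summed FPKM of the members of each role in each library, on a log axis, with PLZF+ libraries in red to the left of PLZF- libraries in blue. Desaturation and elongation is the role where red lies clearly lower, at 109 and 125 in PLZF+ and 242 and 201 in PLZF- libraries. Of this sum, Elovl5 alone held 63.3 and 60.5 in PLZF+ and 203 and 151 in PLZF- libraries.

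A wider list of 125 lipid genes that are not among the 41 was set beside them, and 74 were tested. Of these, 2 were higher and 1 was lower in PLZF+ cells, 4.05% against 7.45% of all genes tested, and their median log2 fold change was 0.12. The acyl-CoA thioesterase Acot9 had 138 and 167 normalized counts in PLZF+ cells and 52.3 and 58.5 in PLZF- cells (1.44 ± 0.37, adjusted p = 0.032, limma). Hacd4, a dehydratase of very long chain elongation listed in the table under its older name Ptplad2, had 89.8 and 108 in PLZF+ and 5.06 and 24.3 in PLZF- cells (3.01 ± 0.68, adjusted p = 0.018, limma). Both PLZF+ pools were above both PLZF- pools for the pair. The authors' deposited table gave q = 0.060 for Acot9 and 0.42 for Hacd4. Acot9 missed the threshold with any library left out (adjusted p from 0.073 to 0.38), without the filter (0.085) and without trend and robust moderation (0.16). Hacd4 missed it without A7, B7 or A6 (0.21, 0.30 and 0.088), without the filter (0.094), without trend and robust moderation (0.16) and under voom (0.080), and its log2 fold change was 1.98 without A6 and 4.04 without B6.

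Hilpda, a droplet protein induced by hypoxia that inhibits adipose triglyceride lipase, had 469 and 363 in PLZF+ cells and 870 and 633 in PLZF- cells (-0.85 ± 0.23, adjusted p = 0.046, limma), while the authors' deposited table gave q = 0.090. It missed the threshold under median-ratio scaling (0.057), equal totals (0.083), a pseudocount of 0.25 (0.060), the FPKM table (0.090), no filter (0.14) and no trend or robust moderation (0.37), and with any library left out (0.063 to 0.49). By list, 1 of 23 tested oxidation genes, 1 of 10 of synthesis, desaturation and elongation, 1 of 16 of storage and breakdown, 0 of 6 of uptake, binding and activation and 0 of 19 regulators were called. The smallest p among the regulators was that of Pparg, the master regulator of fat cells, at 2.48 and 2.23 in PLZF+ and 13.5 and 42.7 in PLZF- cells (-2.91 ± 1.17, adjusted p = 0.19, limma), and among the uptake genes that of the transporter Slc27a6, at 20.4 and 15.6 in PLZF+ and 1.69 and 4.88 in PLZF- cells (2.25 ± 1.19, adjusted p = 0.32, limma). Ppara, a regulator of oxidation in liver, Lpl, which releases fatty acids from lipoproteins, and 26 others were at 0 in all 4 libraries.

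**Figure D5:**
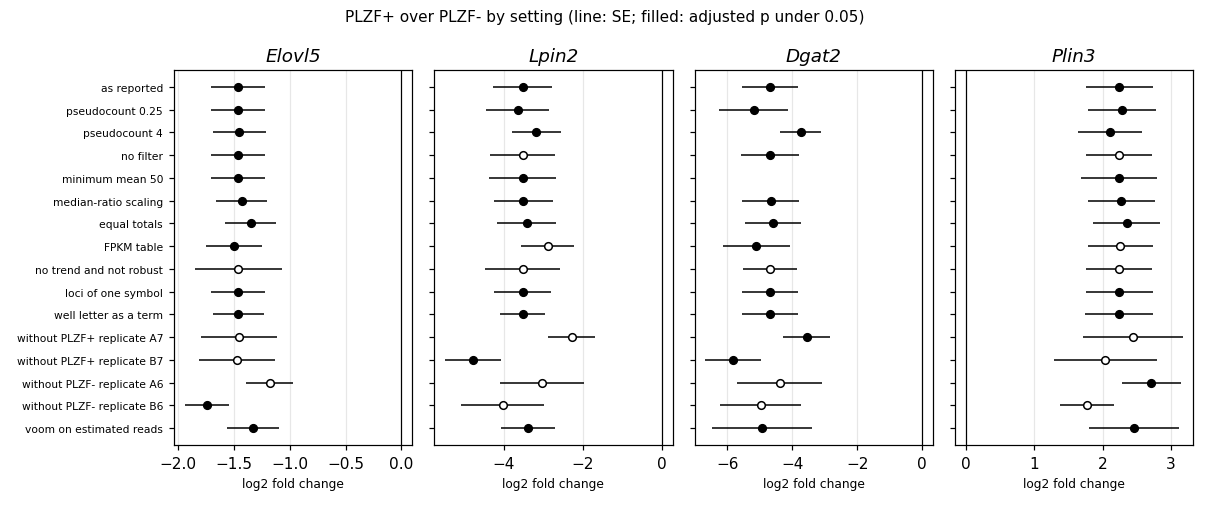
Log2 fold change of PLZF+ over PLZF- cells for the 4 members past the threshold under each processing setting, with SE lines and filled circles for an adjusted p under 0.05. Elovl5, Lpin2 and Dgat2 stay below 0 and Plin3 above 0 in every setting that gave a value, while open circles mark the settings in which the call was lost, among them most of those that leave out a library.

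The drop of Elovl5, Lpin2 and Dgat2 in PLZF+ cells and the rise of Plin3 went with the sums of several marker lists. The innate lymphoid and natural killer markers and the dendritic cell markers given above summed lower in both PLZF+ libraries. So did the macrophage and αβ T cell markers, at smaller sums. The B cell, stromal and endothelial markers summed higher in both PLZF+ libraries. The listed γδ T cell markers that were found summed higher. None of them is a γδ receptor gene, and they include Il17a, by whose product PLZF+ cells are known. Their sum is therefore not a measure of γδ T cell content. The 4 differences also went with depth, which was higher in both PLZF+ libraries. The part of these in the 4 differences was not tested. The summed fat cell markers were also lower in both PLZF+ libraries, through Pparg and Lipe among others, while Adipoq, Plin1 and Cidec were at 0 in every library.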

How the data were processed

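Per the submitters' processing notes, the tools were HISAT 0.1.6, SAMtools 1.2, Cufflinks 1.2 and Cuffdiff and the build mm10. Annotation and strandedness were not given in the sources used here. As tables, the authors deposited Cuffnorm normalized counts (a signal, since estimated counts were scaled library by library), Cuffnorm FPKM, and Cuffdiff p-values and q-values. The authors' own log2 fold changes were not used, since 1321 of its 46799 cells are unreadable.

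Overlapping rows sharing a symbol were summed, giving 46042 genes, 562 of them from more than 1 row. Low values are multiples of the value of 1 read, with 94.5% to 95.7% within 0.05 of a whole number, which gave the estimated reads. Rn45s, listed at 0 in PLZF+ library B7 and at 26.8% to 33.2% of the total elsewhere, was left out. A mean normalized count of 10 or more was required, and the 9234 genes that reached it were tested with limma 3.58.1 in R 4.3.3, with trend and robust moderation, two-sided, on log2(normalized count + 1), which understates the change of low genes. Errors of fold changes are SE, adjustment is Benjamini-Hochberg over all genes tested, and the threshold is 0.05. Pools of mice are the replicates, so p-values reflect how pools vary. With 2 pools a subset, limma's moderation estimates that variation partly from the other genes tested. Floors for 0 reads (3 reads) cover counting error only. The script was tested on simulated data. Tables and figures used Python 3.11.15, pandas 2.3.3, numpy 2.4.6 and matplotlib 3.10.9. Gene positions are from GENCODE on GRCm38, 1-based.

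The members and lists were chosen with earlier results of these data known. Values in every library are given for members past the threshold, those with an unadjusted p under 0.05, those under the filter with 10 or more normalized counts in one library, and the tested member of each role with the highest mean FPKM. Other members whose values are printed were added to account for each one. Of other lipid genes, those past the threshold are named, or else the smallest p of a list. Of markers, the highest of each list is named. One marker is not reported here. Alternatives were median-ratio scaling, equal totals, a minimum mean of 50 or no filter, pseudocounts of 0.25 and 4, log2(FPKM + 0.1), no trend or robust moderation, rows of 1 symbol, the well letter as a term and leaving out each library. Limma's voom on estimated reads was added after seeing the data.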

Additional observations from a re-analysis of the deposited data

How the results depend on the processing

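No paired analysis was possible because the columns carry no replicate number that ties them to the labels. The well letter was fitted as a term (A with A, B with B), but no label says that it pairs libraries. Elovl5, Lpin2, Dgat2 and Plin3 kept their direction in every setting that gave a value. Members higher in PLZF+ cells, 1 as reported, numbered 0 without the filter, in the FPKM table and without trend and robust moderation, 2 with the well letter as a term, 3 under voom, and 0 to 1 when a library was left out. Members lower, 3 as reported, numbered 0 without trend and robust moderation and 0 to 2 when a library was left out. Over all genes, 229 higher and 459 lower became 108 and 277 without the filter, 107 and 240 in the FPKM table, 26 and 179 without trend and robust moderation, 426 and 690 with the well letter, and 22 to 224 and 95 to 273 when a library was left out. Other lipid genes higher, 2 as reported, numbered 0 without the filter and without trend and robust moderation and 0 to 1 when a library was left out. Other lipid genes lower, 1 as reported, numbered 0 at a pseudocount of 0.25, without the filter, under median-ratio and equal-total scaling, in the FPKM table, without trend and robust moderation, and with any library left out. With a library left out, Etfb ran from -0.13 (without A6) to 0.75 and Acly from -0.15 (without A6; -0.08 without A7) to 0.26, both changing sign. Dgat1 passed under voom (adjusted p = 0.044). Equal totals shifted the median of all genes by 0.11 (log2). With the minimum mean of 50, 26 members were tested and Dgat2 and Mgll gave no value. The cause of these changes was not tested. A library left out leaves a subset with 1 library, assumed to vary like the other. Depth limits the low members, most of all in the PLZF- libraries, where 1 read is worth 1.22 to 1.69 normalized counts.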
